A study of Mus musculus with 16 samples.

Results

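The cells described here are the CD44high CD4+ T cells of the second of 2 experiments in which myeloma-bearing mice received an agonistic antibody against 4-1BB (CD137) or control IgG. They were isolated from spleen with a kit and a cell sort and came from 4 T cell receptor (TCR) libraries, 1 for each combination of Eomes genotype and treatment. A cell was kept when its barcode carried exactly 1 contig of the TCR beta chain (TRB) and 1 or 2 contigs of the alpha chain (TRA). This rule kept 19796 of 41428 barcodes in experiment 2, out of 38108 kept in all 8 TCR libraries of the study. There were 4459 cells from wild-type (WT) mice with IgG, 4439 from WT with anti-4-1BB, 5991 from knockout (KO) with IgG and 4907 from KO with anti-4-1BB. The comparison asks which clones make up the larger clonal share seen with anti-4-1BB in these mice.

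All 4 groups carried the Vk12653 myeloma graft, given on day 0, and all were given an NK1.1-depleting antibody (50 µg, days -2 and 5) and tamoxifen. The antibody under study, anti-4-1BB or IgG, was given at 20 µg on days 10, 13 and 16, and spleens were taken on day 18. WT mice are labelled Eomes-IRES-GFP, a line that reports Eomes with GFP. KO mice are labelled Eomesfl/fl-ERT2CD4Cre, a floxed Eomes gene cut by a tamoxifen-dependent Cre. The ages of the mice are not given in the sources used here. The sources also do not say how many mice stand behind a library. The 2 libraries a side differ in genotype and, as each group has 1 library, nothing separates the spread between mice from the effect of genotype. TCR contigs do not show whether Eomes was lost, so the KO label was not checked.

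Each T cell carries a receptor of an alpha and a beta chain. Each chain is assembled by joining a V to a J segment (with a D segment between them in beta), and bases trimmed and added at the joint make the third complementarity-determining region (CDR3), the stretch that touches the presented peptide most. Cells that share both rearranged chains to the nucleotide are nearly always descendants of a single T cell, so the number of cells with a receptor shows how far that clone has grown. 4-1BB is a costimulatory receptor of activated T cells that drives division and survival, and Eomes is a T-box transcription factor of cytotoxic and memory T cells. Here a clonotype groups the cells of a library whose V, J and CDR3 nucleotides are identical in TRB and in the TRA with most unique molecular identifiers (UMIs). Where values are given for a genotype as a pair, IgG comes first and anti-4-1BB second.

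The receptors that recurred most with anti-4-1BB joined TRBV1 to TRBJ2-4 and paired with an alpha chain of a TRAV13 segment and TRAJ30. TRBV1 lies at chr6:40891296-40891885 and TRBJ2-4 at chr6:41543362-41543410 in the mouse annotation GRCm38.p6. TRAV13-1 lies at chr14:53545014-53545525, TRAV13N-1 at chr14:53162399-53162910 and TRAJ30 at chr14:54189866-54189924. The CDR3 beta nucleotides of the clonotypes of this kind with 11 or more cells are shown to let the reader see how alike they are; codons 6 and 7, counted from the first cysteine as 1, are in capitals.
KO anti-4-1BB, 68 cells: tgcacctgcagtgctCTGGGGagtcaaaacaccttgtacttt
KO anti-4-1BB, 50 cells: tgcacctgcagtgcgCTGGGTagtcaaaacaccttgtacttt
KO anti-4-1BB, 49 cells: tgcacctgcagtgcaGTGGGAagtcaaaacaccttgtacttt
KO anti-4-1BB, 11 cells: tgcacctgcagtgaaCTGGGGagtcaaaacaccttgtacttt
KO anti-4-1BB, 11 cells: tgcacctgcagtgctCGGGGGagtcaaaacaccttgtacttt
WT anti-4-1BB, 23 cells: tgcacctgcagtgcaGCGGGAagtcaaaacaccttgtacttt
WT anti-4-1BB, 16 cells: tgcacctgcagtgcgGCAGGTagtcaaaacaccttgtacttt
WT anti-4-1BB, 16 cells: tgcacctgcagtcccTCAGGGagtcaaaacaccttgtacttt
WT anti-4-1BB, 12 cells: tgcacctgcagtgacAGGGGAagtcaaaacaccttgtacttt
The first and second of these encode the same amino acids with different nucleotides, as do the first and second of the WT library. In all of those printed the letters before codon 5 and after codon 7 are the same. The difference lies in codons 5 to 7, which encode an alanine, glutamate, proline or aspartate, then a variable residue, then a glycine. Over all clonotypes of this kind with anti-4-1BB, the letters after codon 7 were these in 22 of 24 (WT) and 48 of 50 (KO). A WT clonotype of 10 cells, not printed, differs there. The receptors were chosen by their V and J segments, so likeness at both ends is in part set by that choice.
The alpha chain of the 68-cell clonotype has the CDR3 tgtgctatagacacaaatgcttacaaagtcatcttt, and that of the 23-cell clonotype of WT has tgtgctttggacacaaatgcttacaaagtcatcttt.

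Among cells with both chains, clones held a larger share with anti-4-1BB in both genotypes, and most of that gain sat in clones of 10 or more cells. To compare libraries of unequal size, each was thinned to 4439 cells, the number in the smallest, and the exact expected value was taken. The expanded share, which counts the cells whose clonotype held at least 2 cells, was 26.8% and 47.0% for WT. For KO it was 26.4% and 35.8%. The IgG libraries lay close together and both anti-4-1BB libraries were higher, WT more so than KO. The differences were 20.2 points in WT and 9.43 points in KO, a mean of 14.8 ± 7.63 (SD, n = 2 genotypes). With 2 libraries a side the smallest p that an exact two-sided permutation test can give is 0.333, so shares are values with no test.

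Clonotypes that reached 10 cells held 2.89% and 18.8% of the WT cells and 3.40% and 11.4% of the KO cells. These large clones accounted for 78.5% of the WT gain and 85.0% of the KO gain. Those that reached 20 cells held 0.695% and 12.8% of the WT cells and 1.43% and 6.65% of the KO cells. They made up 59.7% and 55.4% of the gain. At the small end the direction was opposite: clonotypes of exactly 2 cells held 10.5% and 9.60% of the WT cells, then 9.89% and 8.62% of the KO cells, slightly less with anti-4-1BB in each pair. Clonotypes of 3 to 4 cells held 6.57% and 8.76% (WT) and 7.06% and 7.91% (KO). Those of 5 to 9 cells held 6.83% and 9.91% (WT) and 6.004% and 7.84% (KO).

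**Figure D1:**
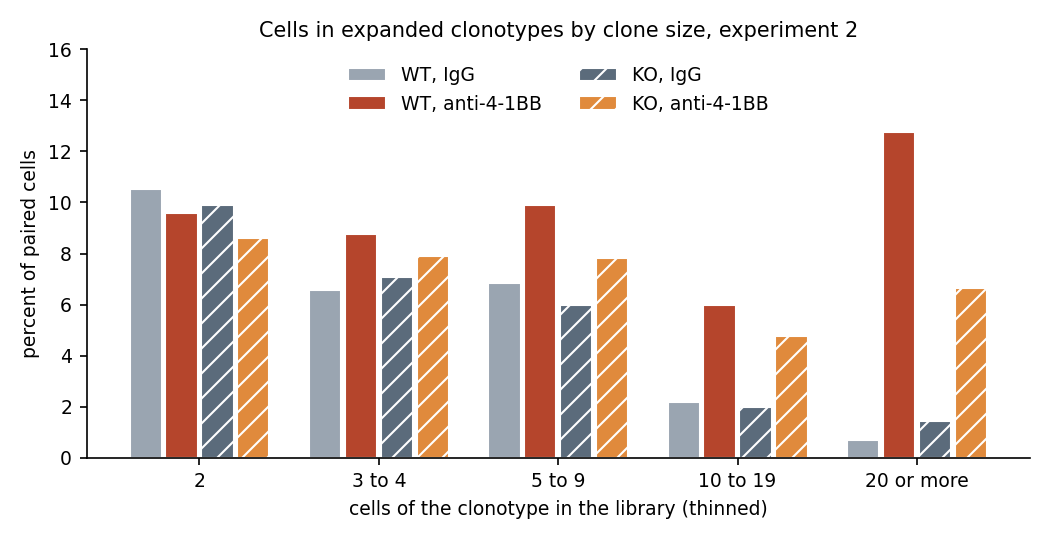
Percent of paired cells (y axis) in clonotypes of each size (x axis), computed for 4439 cells drawn from each library; each bar is 1 library, hatched for KO. Both anti-4-1BB libraries stand above both IgG libraries in the 4 classes from 3 cells up, and below their own IgG library in the class of 2 cells.

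Before thinning, 9 and 38 WT clonotypes reached 10 cells, and so did 19 and 28 KO clonotypes. Of these, 1 and 16 (WT) and 3 and 8 (KO) reached 20 cells. The largest clonotype had 31 and 61 cells (WT) and 33 and 71 cells (KO). The gain was not carried by the very largest clones alone. The 10 largest clonotypes held 3.09% (95% Clopper-Pearson interval 2.61% to 3.65%) and 9.46% (8.62% to 10.4%) of the WT cells. They held 3.37% (2.93% to 3.86%) and 7.64% (6.91% to 8.42%) of the KO cells. Intervals cover counting error only. When the 10 largest of each library were left out, the expanded share was still 23.8% and 41.5% (WT) and 23.1% and 30.3% (KO). The 100 largest held 13.3% and 27.8% of the WT cells and 12.9% and 20.9% of the KO cells. A pair of cells drawn at random shared its clonotype in 1 of 4001 and 1 of 692 draws for WT, and in 1 of 3848 and 1 of 1021 draws for KO. The log2 of this probability (the Simpson concentration) was 2.22 ± 0.44 (SD, n = 2 genotypes) higher with anti-4-1BB.

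**Figure D2:**
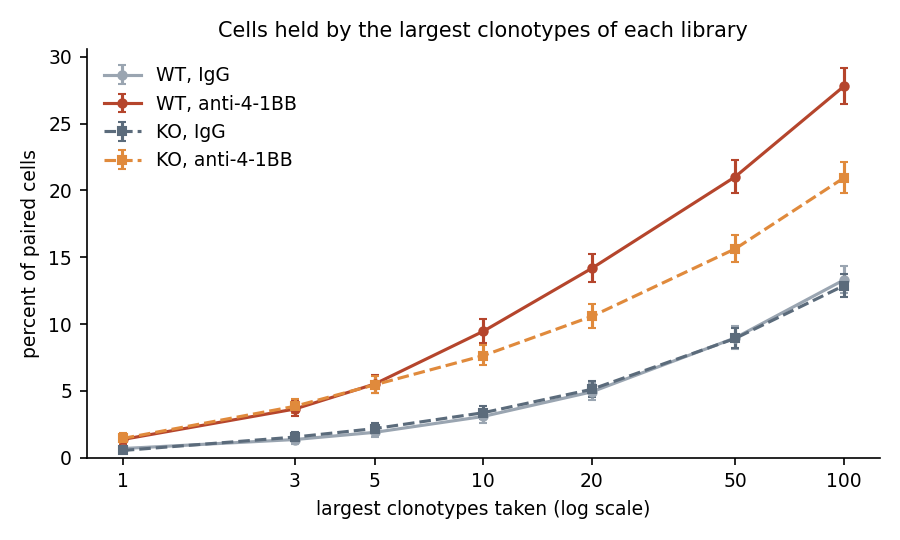
Percent of paired cells (y axis) held by the largest clonotypes of a library, for the 1 to 100 largest (x axis, log scale), with 95% Clopper-Pearson intervals; solid lines are WT and dashed lines KO. The IgG libraries overlap along the whole curve, the anti-4-1BB libraries run together up to the 5 largest clonotypes, and WT is above KO, with intervals that do not overlap, from the 10 largest on. These intervals treat cells as independent and cover counting error only.

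UMI depth moved with treatment. The median TRB contig of a kept cell rested on 12 UMIs in both IgG libraries and 16 in both anti-4-1BB libraries, and the median TRA contig on 7 and 8 against 10 and 10. The share of barcodes with a TRB and no TRA, which the rule leaves out, was also higher with anti-4-1BB (WT 42.0% and 46.6%, KO 36.4% and 46.8%). When cells were kept only with 3 or more UMIs on both chains, the differences in expanded share were 19.8 and 9.07 points. When clones were defined by TRB alone and cells with no TRA were added, they were 16.5 points in WT and 5.71 in KO. Among the cells with no TRA alone, thinned to 3832 cells and grouped by TRB, the expanded share was 28.3% and 41.4% (WT) and 27.3% and 28.7% (KO). The WT difference there was 13.1 points and the KO difference 1.32, so the KO gain was small in the cells that the pairing rule leaves out. Any pair of the 4 libraries had 111 to 184 barcodes in common, 0.982% to 1.70% of a library, and 0 of those that were kept in both had the same clonotype in both.

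The receptors of the TRBV1-TRBJ2-4 and TRAV13-TRAJ30 kind were rare with IgG and common with anti-4-1BB in both genotypes. They were singled out after their values were seen, as the 4-segment combination with most clonotypes in each of the 4 libraries, so their shares are a description. With IgG there were 10 such WT cells (0.224%, interval 0.108% to 0.412%) and 20 KO cells (0.334%, 0.204% to 0.515%). With anti-4-1BB there were 142 WT cells (3.20%, 2.70% to 3.76%) and 320 KO cells (6.52%, 5.85% to 7.25%). In the libraries of experiment 1 they numbered 2 to 8 cells. The clonotypes behind them numbered 9 and 15 with IgG and 24 and 50 with anti-4-1BB (WT and KO). Some with anti-4-1BB shared a beta chain, as their distinct beta nucleotide sequences numbered 21 and 40, beside 9 and 15 with IgG. None of the IgG clonotypes reached 10 cells (the largest had 2 and 4), while 7 WT and 6 KO clonotypes did with anti-4-1BB.

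These receptors were also alike in CDR3 length and at residue 7 of the beta chain. How far the choice of V and J segments brings this likeness was not tested. The CDR3 beta was 14 residues long in 49 of the 50 clonotypes of KO with anti-4-1BB and in all 9, 24 and 15 of the other 3 libraries, and the CDR3 alpha was 12 residues long in all of them. Residue 7 of the CDR3 beta was a glycine in 9 of 9 and 23 of 24 WT clonotypes and in 14 of 15 and 49 of 50 KO clonotypes. Residue 6 varied, and which residue prevailed by cells differed between the anti-4-1BB libraries. In WT 73 of the 142 cells had an alanine there, and in KO 143 of the 320 had a leucine, 76 an alanine and 50 a valine. The leucine cells of KO were mainly the 68-cell and 50-cell clonotypes printed above. Those and a clonotype of 7 cells encode the same receptor with different nucleotides, so 3 rearrangements gave 1 amino acid sequence in this library. The segment partner also differed: the 3 largest of KO used TRAV13N-1, and 6 of the 7 large ones of WT used TRAV13-1. TRAV13-1 and TRAV13N-1 are near-identical copies of a duplicated part of the locus, so the label between them is uncertain.

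The same receptors account for a part of the gain in KO and for little of it in WT. Without them the difference in expanded share was 18.96 points for WT, against 20.2 with them, and 6.06 points for KO, against 9.43. The difference in the share of cells in clones of 10 or more was 14.3 points in WT and 5.04 in KO, against 15.9 and 8.01.

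Cells with a TRB and no TRA took no part in choosing these receptors. Among them TRBV1-TRBJ2-4 made up 0.861% in WT with IgG (33 of 3832 cells, interval 0.594% to 1.21%) and 2.10% in WT with anti-4-1BB (97 of 4625, 1.70% to 2.55%). In KO it made up 0.413% (17 of 4118, 0.241% to 0.660%) and 2.93% (152 of 5185, 2.49% to 3.43%). The intervals did not overlap within either genotype. They treat cells as independent, which cells of a clone are not, and cover counting error only, with 1 library a group. Of these cells, 11 and 78 in WT and 6 and 118 in KO had a CDR3 beta of 14 residues. A cell whose TRA was not recovered can belong to a clone counted among the paired cells, so these are the same libraries seen through other cells, not other mice.

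**Figure D3:**
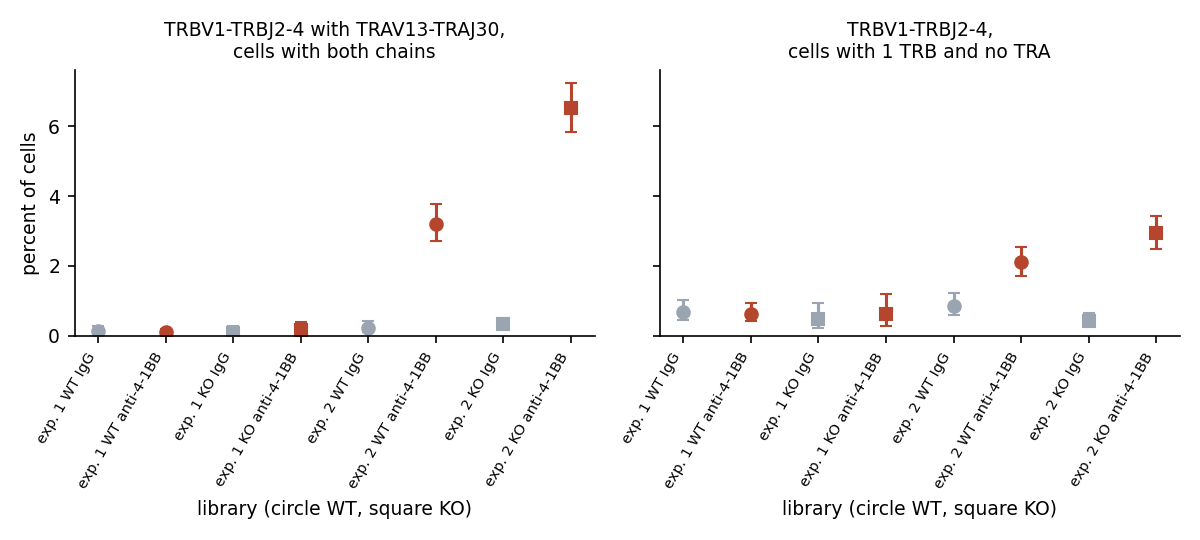
Percent of cells (y axis) with a TRBV1-TRBJ2-4 beta and a TRAV13-TRAJ30 alpha chain among cells with both chains (left), and with a TRBV1-TRBJ2-4 beta among cells with 1 TRB and no TRA (right), in each of the 8 libraries (x axis) with 95% Clopper-Pearson intervals. On both sides the anti-4-1BB libraries of experiment 2 stand above the other 6, with 3.20% and 6.52% on the left and 2.10% and 2.93% on the right.

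Over all V-J pairings, the number of clonotypes was tested with edgeR's quasi-likelihood test. A clonotype counted once whatever its size, and the 4 libraries of experiment 1 entered the fit to estimate the spread. Of 563 pairings, 2 were called (0.355%) at a Benjamini-Hochberg adjusted p under 0.05: 1 was higher with anti-4-1BB (0.178%) and 1 lower (0.178%). In all 46 had an unadjusted p under 0.05. The pairing called higher was TRBV1-TRBJ2-4. It made up 32 of the clonotypes in WT with IgG (0.879%), 44 in WT with anti-4-1BB (1.58%), 37 in KO with IgG (0.778%) and 100 in KO with anti-4-1BB (2.84%). Both anti-4-1BB libraries were above both IgG libraries, and the log2 difference was 1.43 ± 0.33 (SE; edgeR adjusted p = 0.0324).

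A limit of that count is that a beta chain seen with several alpha chains counts several times. With each TRB chain counted once, an alternative chosen after the data were seen, there were 32 and 38 TRBV1-TRBJ2-4 chains in WT and 36 and 66 in KO. The log2 difference was then 1.05 ± 0.29 and was not called (edgeR adjusted p = 0.579). In KO with anti-4-1BB, 21 clonotypes with the beta chain of a recurrent receptor had another alpha chain, each in 1 cell. The call also ended with DESeq2 (adjusted p over 0.99), with genotype as a block (adjusted p = 0.358, edgeR), and without the WT IgG, KO IgG or KO anti-4-1BB library (log2 1.51, 1.34 and 0.93), while it held without the WT anti-4-1BB library (1.78).

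The pairing called lower was TRAV11-TRAJ18, the invariant alpha chain of natural killer T (NKT) cells, which recognise lipids on CD1d. TRAV11 lies at chr14:53519303-53519859 and TRAJ18 at chr14:54200777-54200842. It made up 59 clonotypes in WT with IgG (1.62%), 7 in WT with anti-4-1BB (0.251%), 101 in KO with IgG (2.12%) and 13 in KO with anti-4-1BB (0.369%). The log2 difference was -2.57 ± 0.52 (edgeR adjusted p = 0.0380), and leaving out any of the 4 libraries ended the call at a log2 of -2.89 to -2.34. The call also ended with DESeq2, with cells counted in place of clonotypes and without the recurrent receptors, and it held with genotype as a block. With each TRA chain counted once, however many beta chains it met, the difference was -0.62. Clonotypes that share the nucleotides of this alpha chain merge in that count, so it cannot show how many such cells there were. By cells, the chain was in 59 and 7 (WT) and in 102 and 13 (KO). These cells took almost no part in clonal growth: the largest clonotype had 2 cells in KO with IgG and 1 in each of the other 3 libraries. The other invariant alpha chain checked, TRAV1-TRAJ33 of mucosal-associated invariant T cells, was in 0 to 2 cells per library.

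By single segments, 0 of 152 were called higher (0%) and 2 lower (1.32%, either direction 1.32%): TRAV11 (log2 -2.03 ± 0.31, edgeR adjusted p = 4.46e-08) and TRAJ18 (-1.07 ± 0.19, 2.35e-05). With each TRA chain counted once both calls ended, at -0.12 for TRAV11 and -0.34 for TRAJ18 (edgeR adjusted p = 0.939 and 0.586). Clonotypes that share the invariant alpha chain merge in that count too, so the loss of the calls is in part set by it. In all, 21 segments had an unadjusted p under 0.05. The segments nearest to a call in the other direction were those of the recurrent receptor and 2 further TRAV segments. They were TRAV13-1 (log2 0.58 ± 0.20), TRAJ30 (0.41 ± 0.16), TRAV6-3 (0.93 ± 0.37), TRBJ2-4 (0.23 ± 0.09) and TRAV5-1 (0.73 ± 0.31), with edgeR adjusted p of 0.19 for the first and 0.215 for the others. TRBV1 as a whole showed no such difference (7.85% and 5.99% of WT clonotypes, 7.28% and 8.45% of KO clonotypes, log2 -0.06 ± 0.19). With genotype as a block TRAV13-1 was called (0.59, edgeR adjusted p = 0.00382), and with TMM factors too (0.74, 0.0136).

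Among lists of segments, 0 of the 3 Vβ8 segments (TRBV13-1, TRBV13-2 and TRBV13-3) and 0 of the 2 Vβ5 segments (TRBV12-1 and TRBV12-2) were called, with median log2 differences of 0.01 and -0.42 beside -0.01 over all 152. The usual beta partners of the NKT alpha chain (the Vβ8 segments, TRBV29 and TRBV1) had 0 of 5 called and a median of -0.01. Of the TRBJ1 and TRBJ2 clusters 0 of 6 each were called, with medians of -0.14 and 0.04. TRAJ segments numbered above 30, which lie nearer the V segments, had 0 of 22 called and a median of 0.03. Those numbered 30 or below had 1 of 21 called, TRAJ18, and a median of 0.12.

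Within the anti-4-1BB libraries, expanded clonotypes used the alpha segments of the recurrent receptor more often than single-cell clonotypes of the same library. Of 152 segments tested with edgeR, 2 were called higher in expanded clonotypes (1.32%) and 0 lower (0%), and 15 had an unadjusted p under 0.05. TRAV13-1 was in 4.25% of single and 8.20% of expanded WT clonotypes, and in 5.53% and 11.5% of those of KO (log2 1.01 ± 0.22, edgeR adjusted p = 0.00125). TRAJ30 was in 4.25% of single and 6.38% of expanded WT clonotypes, and in 4.89% and 9.35% of those of KO (0.78 ± 0.21, adjusted p = 0.0216). With IgG, TRAV13-1 was in 3.80% of single and 6.32% of expanded WT clonotypes and in 3.38% and 3.84% of those of KO. TRAJ30 was in 4.14% and 4.21%, then 3.52% and 2.88%. Neither was called. The difference between the anti-4-1BB and the IgG term was itself called for 0 of 152 segments (0%, 13 at an unadjusted p under 0.05), and for TRAV13-1 it was 0.55 ± 0.34 (edgeR adjusted p = 0.648). With expansion counted from 3 cells, 1 segment passed in that difference, TRBV1. 

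**Figure D4:**
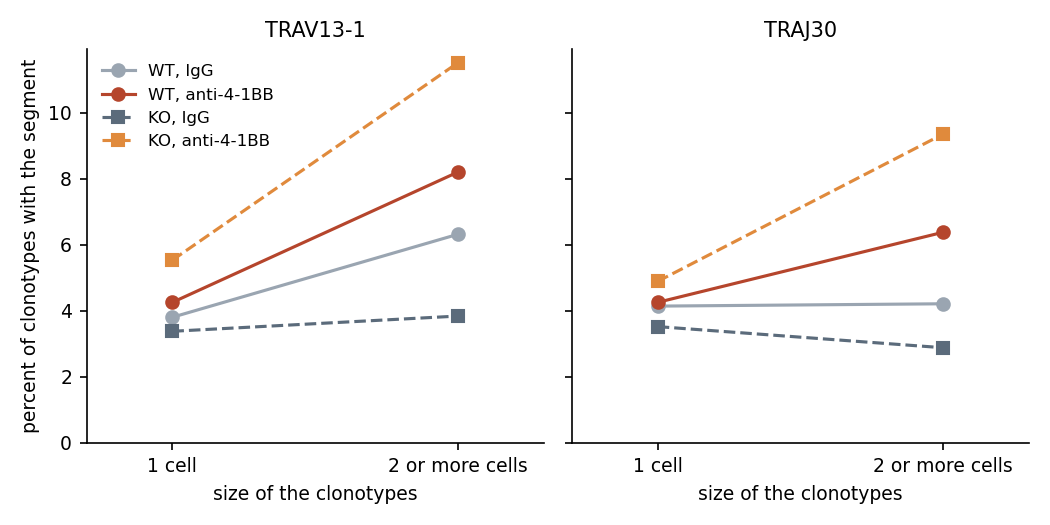
Percent of clonotypes (y axis) that use TRAV13-1 (left) or TRAJ30 (right) among clonotypes of 1 cell and of 2 or more cells (x axis); each line joins the 2 values of 1 library, solid for WT and dashed for KO. The anti-4-1BB libraries reach 8.20% and 11.5% for TRAV13-1 and 6.38% and 9.35% for TRAJ30 in expanded clonotypes.

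Both calls rested on the recurrent receptors and on the tool. With DESeq2 neither was called (adjusted p over 0.99), and TRBJ2-4 was called in their place. Without the recurrent receptors TRAV13-1 was 0.41 ± 0.26 higher in expanded clonotypes and TRAJ30 was -0.59 ± 0.30, neither called (edgeR adjusted p = 0.656 for each). TRAV13-1 lost its call without the KO anti-4-1BB library (0.95, edgeR adjusted p = 0.192) and held it without each of the other 3, and TRAJ30 lost its call without any of the 4 (0.58 to 0.93). The 5 segments with the smallest p in the other direction, not called, were TRAJ44 (log2 -1.89 ± 0.68), TRBV19 (-0.76 ± 0.25), TRAJ45 (-2.06 ± 0.81), TRBJ2-2 (-0.56 ± 0.23) and TRAJ34 (-0.75 ± 0.32). Of these, 3 moved by over 1.5 times without 1 of the anti-4-1BB libraries. Without KO, TRAJ44 was -0.85, TRBJ2-2 -0.32 and TRAJ34 -1.69, and without WT, TRBJ2-2 was -0.83 and TRAJ34 -0.19. TRAJ44 was in 3 expanded clonotypes of WT and 0 of KO, so its fitted value without WT (-7.77) is no measure of size. In the IgG libraries 0 segments were called higher (0%) and 1 lower (0.658%): TRAV11, which was in 65 and 103 single and in 0 and 2 expanded clonotypes (log2 -3.30 ± 0.71, edgeR adjusted p = 0.000703). That call ended with DESeq2 (adjusted p = 0.448), and in edgeR with experiment 2 alone (0.269) and without the WT IgG (0.309) or the KO IgG library (0.138).

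The large clones that were not of the recurrent kind used many segments. With anti-4-1BB there were 31 such clonotypes of at least 10 cells in WT, with 14 TRBV segments, 27 TRBV-TRBJ pairings and 30 TRAV-TRAJ pairings, and 22 in KO, with 11, 16 and 20. Over all clonotypes of at least 10 cells, the recurrent kind included, TRBV1-TRBJ2-4 held 117 of 833 cells in WT and 199 of 602 in KO, more than any other beta pairing.

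In WT with anti-4-1BB none of the 10 largest clonotypes was of the recurrent kind. The largest joined TRBV13-1-TRBJ1-1 to TRAV14N-1-TRAJ4 and had 61 cells (1.37%). The next had 57 cells (TRBV16-TRBJ2-7 with TRAV13-4-DV7-TRAJ58), 44 cells (TRBV16-TRBJ1-1 with TRAV5-1-TRAJ42) and 42 cells (TRBV31-TRBJ2-4 with TRAV14N-1-TRAJ4). Then came 41 cells (TRBV13-2-TRBJ1-1 with TRAV14N-1-TRAJ31), 39 cells (TRBV13-2-TRBJ2-4 with TRAV21-DV12-TRAJ53) and 37 cells (TRBV5-TRBJ2-4 with TRAV6D-6-TRAJ34). The last were 35 cells (TRBV15-TRBJ1-1 with TRAV14-2-TRAJ23) and a pair of 32 cells each (TRBV13-2-TRBJ2-7 with TRAV6N-7-TRAJ44 and with TRAV4N-4-TRAJ16). TRBV13-2 made up 4 of the 10 beta chains, beside 15.2% of all clonotypes of this library. TRAV14 segments made up 4 of the 10 alpha chains. The commonest segments of that family over all clonotypes were TRAV14N-1 (2.65%), TRAV14N-3 (2.40%) and TRAV14-2 (1.65%). Its other tested segments were TRAV14-1 (0.860%), TRAV14N-2 (0.860%), TRAV14D-3-DV8 (0.681%) and TRAV14-3 (0.323%). The share of the whole family is at least the sum of these values. Both counts were picked out after the clones were seen, and 10 clones are few. The CDR3 beta of the first 3 are shown next. They come from 3 different V-J pairings, while the set above was chosen by a shared V and J segment. A contrast in likeness between the sets is therefore fixed by that choice.
WT, 61 cells: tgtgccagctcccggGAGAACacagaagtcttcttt
WT, 57 cells: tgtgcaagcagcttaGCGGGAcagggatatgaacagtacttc
WT, 44 cells: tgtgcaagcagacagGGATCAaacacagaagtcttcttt
None of the CDR3 beta amino acid sequences of these 10, with their V and J segments, was seen in another library of experiment 2, and 2 of them were seen in experiment 1, in 2 cells and in 1 cell.

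In KO with anti-4-1BB the largest clonotype had 71 cells (TRBV20-TRBJ2-4 with TRAV14-2-TRAJ49), and the next 3, of 68, 50 and 49 cells, were of the recurrent kind. They were followed by 30 cells (TRBV13-2-TRBJ2-7 with TRAV7D-2-TRAJ27) and by 3 clonotypes of 23 cells. These were TRBV10-TRBJ2-5 with TRAV12-2-TRAJ26, TRBV26-TRBJ2-7 with TRAV13-1-TRAJ34, and TRBV13-2-TRBJ1-6 with TRAV10-TRAJ30. The last had 19 cells each (TRBV13-3-TRBJ1-2 with TRAV7D-2-TRAJ2, and TRBV12-2-TRBJ1-1 with TRAV8-1-TRAJ43). The TRBV13-3 clonotype may be a part of a larger clone. Its beta chain was in 37 cells, and 10 of its 19 cells also carried a second alpha chain (TRAV13-1-TRAJ17). Cells of such a clone in which the other alpha chain had more UMIs would be counted apart. The main alpha chain of the other cells with this beta chain was not examined here. TRBV26-TRBJ2-7 was a second recurrent beta pairing, and not in this library alone. Here it held 126 cells in 47 clonotypes. Among them were 44 cells in 4 clonotypes with TRAV13 and TRAJ34 and 41 cells in 15 clonotypes with TRAV13 and TRAJ37. The combination with TRAJ37 was also in 6 WT clonotypes with IgG (11 cells) and 7 with anti-4-1BB (11 cells). The 4 with TRAJ34 encode 1 receptor with different nucleotides. The beta amino acid sequence of the 23-cell clonotype was in 79 cells of KO and 18 of WT with anti-4-1BB, and in 11 and 5 with IgG.

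With IgG the 3 largest clonotypes of WT had 31 cells (TRBV20-TRBJ2-7 with TRAV3N-3-TRAJ30), 18 cells (TRBV13-2-TRBJ2-3 with TRAV13N-2-TRAJ39) and 12 cells (TRBV23-TRBJ2-7 with TRAV13-1-TRAJ23). Those of KO had 33 cells (TRBV10-TRBJ2-5 with TRAV4-4-DV10-TRAJ49), 31 cells (TRBV13-3-TRBJ2-1 with TRAV4N-4-TRAJ21) and 29 cells (TRBV26-TRBJ1-2 with TRAV6N-7-TRAJ40). None was of the recurrent kind. Another combination that recurred in KO with IgG was TRBV5-TRBJ2-4 with TRAV6 and TRAJ21, in 14 clonotypes and 41 cells. In WT with IgG that combination was in 5 clonotypes and 9 cells.

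Receptors built by convergence, with the same amino acids, V and J segments from different nucleotides within 1 library, held a larger share of cells with anti-4-1BB. There were 10 and 11 such WT receptors and 24 and 17 such KO receptors, so their number did not move in 1 direction. They made up 0.583% and 3.40% of the WT cells and 1.97% and 6.38% of the KO cells. Most of these cells with anti-4-1BB were of the recurrent kind already described (85 of 151 in WT and 212 of 313 in KO). Without that kind the convergent receptors made up 0.538% and 1.49% of the WT cells and 1.85% and 2.06% of the KO cells. Of those 66 WT cells with anti-4-1BB, 43 carried 1 receptor, TRBV31-TRBJ2-4 with TRAV14N-1-TRAJ4, mainly the 42-cell clonotype named above. Its 2 forms had 1 beta nucleotide sequence and differed only in alpha. Whether they are separate rearrangements was not tested, so that WT rise rests largely on 1 expanded clonotype.

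Clonotypes identical to the nucleotide in both chains were seldom shared between libraries: 1 to 6 for any pair of the 4. Of those with 5 or more cells in all there were 7. A TRBV1-TRBJ2-4 clonotype with TRAV13-1-TRAJ30 had 12 WT cells and 3 KO cells with anti-4-1BB and 0 with IgG. Its beta chain, with aspartate, arginine and glycine in codons 5 to 7, is the 12-cell sequence printed above. Another of that kind had 1 cell in WT with IgG and 9 in KO with anti-4-1BB. The remaining 5 were TRBV5-TRBJ2-4 with TRAV6-2-TRAJ21 in 2 forms (8 and 3 cells, and 5 and 3 cells, in KO with IgG and with anti-4-1BB), TRBV20-TRBJ2-1 with TRAV6N-7-TRAJ23 (9 cells in KO with IgG, 1 in WT with anti-4-1BB) and TRBV2-TRBJ1-3 with TRAV4-3-TRAJ50 in 2 forms (1 cell in WT and 5 or 4 in KO, with IgG). The shared TRBV5 beta chain, shown because both forms carry it, was:
TRBV5-TRBJ2-4: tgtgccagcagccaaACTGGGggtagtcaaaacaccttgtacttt

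The CDR3 beta of clonotypes was slightly shorter with anti-4-1BB. Its mean length was 13.79 and 13.71 residues for WT and 13.76 and 13.68 for KO, a difference of -0.08 ± 0.006 (SD, n = 2 genotypes). That SD rests on 2 pairs that lay close together and is no measure of the spread between libraries. Without 1 library the difference ranged from -0.097 to -0.064. Of 9 lengths tested with edgeR, 1 was called higher (11.1%) and 2 lower (22.2%), 33.3% in all. Length 10 made up 0.522% and 0.753% of WT and 0.421% and 0.993% of KO clonotypes (log2 0.93 ± 0.28, adjusted p = 0.00829, edgeR). It is a rare length, with 19 to 35 clonotypes per library. Length 16 made up 7.17% and 5.63% of WT and 6.81% and 5.56% of KO clonotypes (-0.32 ± 0.09, 0.00829), and length 15 20.4% and 19.8%, and 20.6% and 17.7% (-0.14 ± 0.05, 0.0325). All 3 calls ended with genotype as a block (edgeR adjusted p = 0.178, 0.0817 and 0.178), with each chain counted once (0.0863, 0.0863 and 0.104), and without the WT IgG, KO IgG or KO anti-4-1BB library. Without 1 library the log2 difference ranged from 0.69 to 1.09 for length 10, from -0.36 to -0.29 for length 16 and from -0.21 to -0.05 for length 15, the last being -0.05 without KO anti-4-1BB and -0.21 without WT anti-4-1BB.

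**Figure D5:**
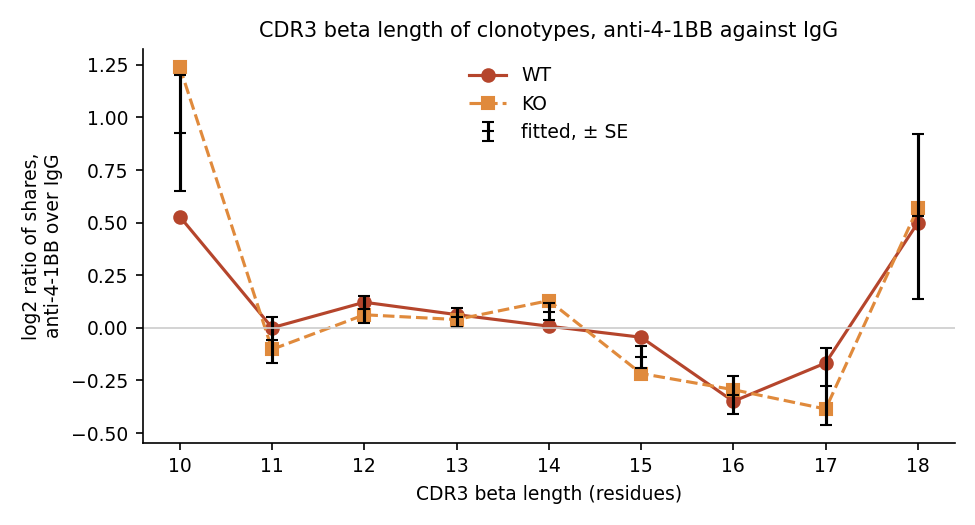
Log2 ratio of the share of clonotypes with each CDR3 beta length, anti-4-1BB over IgG (y axis), against the length in residues (x axis), for WT (circles) and KO (squares), with the fitted difference and its SE in black. Both genotypes lie above 0 at length 10 and below 0 at lengths 15 and 16.

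Other CDR3 features differed little. The mean CDR3 alpha length was 13.42 and 13.38 residues for WT and 13.47 and 13.29 for KO. Hydrophobic residues at both positions 6 and 7 of the CDR3 beta, a feature linked to self-reactive receptors, were in 3.49% and 2.29% of WT and 2.52% and 2.50% of KO clonotypes, and the difference of the pairs was -0.61 ± 0.82 points (SD, n = 2). It was -0.13 without the WT IgG library and -1.09 without the KO IgG library. Large clones lacked the feature: among clonotypes that reached 10 cells it was in 0 of 9 and 0 of 38 (WT) and in 0 of 19 and 0 of 28 (KO). With so few clones the upper 95% bounds were 33.6%, 9.25%, 17.6% and 12.3%, all above the share over all clonotypes. The mean net charge of the CDR3 beta was -0.77 and -0.76 for WT and -0.75 and -0.77 for KO, and that of the CDR3 alpha 0.69 and 0.69, and 0.69 and 0.67.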

How the data were processed

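Cell Ranger 7.1.0, bcl2fastq 2.20.0, Seurat and the build GRCm38 are named in the submitters' processing notes. The V(D)J reference is not given in the sources used here. The authors deposited 1 contig table per library with counts of reads and UMIs per contig, per the file headers, and 8039901 to 12029353 reads and 167514 to 263427 UMIs per library of experiment 2. The label TRBV12-2+TRBV13-2 was read as TRBV13-2, since 99.7% of its contigs carried the TRBV13-2 CDR1.

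Clonotypes, size classes after thinning and CDR3 features were computed with Python 3.11.15, pandas 2.3.3 and scipy 1.17.1. Segments (10 or more clonotypes in at least 2 libraries), pairings (5 or more) and lengths were tested with edgeR 4.0.16 (R 4.3.3) in a quasi-likelihood fit of all 8 libraries with 4 means (experiment and treatment), the total as library size, 1 common dispersion per type and Benjamini-Hochberg adjustment over each family. The prior degrees of freedom were infinite for TRAV, for CDR3 lengths and for TRAV and TRBJ in the fit of expanded clonotypes, and 5046 for TRAJ there, so SE and p of those features rest on a pooled spread. DESeq2 1.42.0 was an alternative. The fits were tested on simulated data. P-values rest on the spread between libraries, not between mice, whose number is not given. In the fits with 4 means no genotype term was fitted. Their spread therefore includes the difference between genotypes, and it is shared over both experiments.

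Named features are those called, otherwise the 5 of smallest p in each direction, the 10 largest clonotypes of each anti-4-1BB library, the 3 largest of each IgG library and those shared with 5 or more cells. The members and lists were chosen with earlier results of these data known. CDR3 bases matched by neither V nor J were not analysed here.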

Additional observations from a re-analysis of the deposited data

Results flagged for a closer look

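Treatment differences that set experiment 2 apart from experiment 1 were found for 3 features by the test of the difference itself (edgeR). Of 152 segments 1 was called, of 563 pairings 0, and of 9 CDR3 beta lengths 1 higher and 1 lower. The 3 features were TRBV12-1 (log2 -2.87 ± 0.46, adjusted p = 0.0454), CDR3 beta length 16 (-0.42 ± 0.12, adjusted p = 0.0173) and length 10 (1.19 ± 0.38, adjusted p = 0.0178). Within experiment 2 the treatment difference of TRBV12-1 was only -0.49 ± 0.36 (edgeR adjusted p = 0.602), so the larger part came from experiment 1. The TRBV12-1 call ended without any 1 of the 4 libraries of experiment 2 (log2 -3.13 to -2.61), with 3 or more UMIs (-2.81) and with each chain counted once (-2.84). Both length calls ended with DESeq2, without a filter, with genotype as a block, with each chain counted once, and without the WT IgG, the KO IgG or the KO anti-4-1BB library, and that of length 16 also over cells. The log2 Simpson concentration was higher with anti-4-1BB in both genotypes of experiment 2 (2.53 in WT, 1.91 in KO) and lower in both of experiment 1 (-1.47 and -1.44). The mean treatment difference was 3.68 larger in experiment 2, which was not tested. The experiments differ in the type of knockout, in tamoxifen and in batch, and these cannot be told apart.

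Cells with a TRB and no TRA, which the comparisons leave out, carried TRBV1-TRBJ2-4 in 2.10% (WT) and 2.93% (KO) of cells with anti-4-1BB, above the 95% intervals of the IgG libraries (0.594% to 1.21% in WT and 0.241% to 0.660% in KO). Those intervals cover counting error only.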

How the results depend on the processing

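Shares of expanded cells and large clones, the Simpson concentration and the top 10 share kept their direction under each alternative and stayed within 1 SD of their values, except that without the 10 largest clonotypes the Simpson difference was 1.56 and the top 10 difference 2.33 (an alternative chosen for both after the data were seen). That SD comes from 2 genotype pairs and is wide, 7.63 points for the expanded share, so staying within it is a weak check. Without 1 library in turn the difference in expanded share ranged from 9.20 to 20.5 points and that in large clones from 8.27 to 15.6 points. Counts of calls moved more. With TMM factors, with cells in place of clonotypes and with genotype as a replicate block, 1 segment was called higher. With each chain counted once, 0 segments were called lower. The number of pairings called higher was 0 with DESeq2, with genotype as a replicate block, with each chain counted once and without the recurrent receptors, 2 with experiment 2 alone and 0 to 1 without 1 library. Pairings called lower were 0 with DESeq2, cells, each chain counted once, without the recurrent receptors and without any 1 library. CDR3 lengths called higher were 0 with the replicate block and with each chain counted once, and 0 to 2 without 1 library. Lengths called lower were 0 with DESeq2, cells, the block and each chain counted once, 1 with TMM, no filter and without the recurrent receptors, and 0 to 2 without 1 library. Segments called higher in expanded clonotypes were 1 with DESeq2 (TRBJ2-4), 4 from 3 cells (with TRBV1 and TRBJ2-4), 0 without the recurrent receptors (TRAJ30 -0.59) and 0 to 1 without 1 library. The difference in mean CDR3 beta length was -0.11 over cells, -0.088 with 3 or more UMIs, and -0.097 to -0.064 without 1 library. Differences in net charge were near 0 and changed sign: 0.038 over cells for beta (-0.022 to 0.0062 without 1 library) and 0.0061 for alpha (-0.017 to 0.0026). Same-genotype libraries share only a genotype label, and 2 pairs are too few to check pairing. The cause of these changes was not tested, and alternatives on single chains and on the recurrent receptors were chosen after the data were seen. Cells whose TRA was not recovered limit the count of rare receptors.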
